A study of Mus musculus with 2 samples.

Results

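The mouse genes Mir6896 to Mir7094 form a late block of the microRNA (miRNA) catalogue, in which most hairpins lie in introns of protein-coding genes. They were examined in the facial prominences of mouse embryos of strain B6NCrl at embryonic day 14.5, the tissue that builds the face and jaws. Members were chosen by the number in the gene symbol alone, whatever their counts. Of the 1973 miRNA gene rows in the data, 178 carried a symbol from Mir6896 to Mir7094, and 23 of the 201 annotated genes of this range had no row and are not analysed here. The study holds 2 libraries of small RNA, 1 from each biological replicate of 1 group, and no treatment or mutant. The labels describe each sample as the face of 1 pup, with different collection days, yet give the sex as a pool of both. Whether a replicate is 1 embryo is therefore not settled, and the collection day and the replicate cannot be told apart.

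A conventional miRNA is cut from its primary transcript by the nuclease Drosha and then by Dicer. A mirtron skips the first cut: splicing releases a short intron, which is debranched and folds into a hairpin that Dicer can use. In a 5'-tailed mirtron the hairpin ends at the 3' splice site, and the intron sequence in front of it is trimmed. Most introns start with GU and end with AG, and a hairpin that is a whole intron then begins and ends with these letters. Of the 14 such members described below, 13 start with GU, and Mir7088 in Mst1 does not.

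The hairpins of 4 of the 10 highest members show the forms found in the block. They are given 5' to 3' from the RefSeq table (build GRCm38.p6), with GU at the first position and AG at the last position in capitals.
Mir6944: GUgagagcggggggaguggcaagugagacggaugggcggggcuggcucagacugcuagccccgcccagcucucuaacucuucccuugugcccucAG
Mir6923: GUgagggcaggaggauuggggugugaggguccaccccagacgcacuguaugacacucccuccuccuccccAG
Mir7083: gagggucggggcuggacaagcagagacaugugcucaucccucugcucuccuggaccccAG
Mir7025: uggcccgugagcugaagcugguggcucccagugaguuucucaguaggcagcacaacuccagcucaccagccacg
Mir6944 and Mir6923 have both marks and fill an intron, Mir7083 has the closing AG alone, and Mir7025 has neither.

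The mature sequences of these genes, with the seed (bases 2 to 8) in capitals, are printed because the seed sets which messenger RNAs a miRNA can pair with.
miR-6944-5p: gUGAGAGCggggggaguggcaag
miR-6944-3p: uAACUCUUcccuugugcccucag
miR-7083-5p: uCGGGGCUggacaagcagaga
miR-7083-3p: uCUGCUCUccuggaccccag
miR-6923-5p: gUGAGGGCaggaggauuggggugu
miR-7025-5p: cGUGAGCUgaagcugguggcuccc
miR-7025-3p: cAGCACAAcuccagcucaccag
None of these 7 seeds was shared with another member, and 1 of them, that of miR-7083-5p, also occurred in a mouse miRNA outside the block, miR-12197-3p. The counts are per hairpin gene and hold no read positions, so they do not say which arm a read came from.

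What the members shared was a position at the 3' splice site more than a short host intron. In the annotation, the 3' end of the hairpin was the last base of the host intron in 165 of 178 members (92.7%), against 21 of 1716 named miRNA genes outside the block (1.22%). Both ends lay within 3 bases of the ends of 1 intron, as in a whole-intron mirtron, in 14 members. Another 152 had only the 3' end there, the layout of a 5'-tailed mirtron. In 4 members, among them Mir6977 in Ptprs, only the 5' end lay at the start of the intron. Of the remaining 8, Mir7036b lay away from both ends of its intron. Mir7025 lay wholly inside no intron, since 30 of its 74 bases fell in a coding exon of Pdgfra. Mir6901, Mir6903 and Mir6914 ran 6 bases past the 3' end of the intron into a coding exon. Mir6904, Mir6950 and Mir7029 ran 7 bases past it, also into a coding exon. Host introns were up to 150 bases long in 60 members, and their median length was 423 bases (quartiles 109 and 1139, range 66 to 36269), so "short intron" describes a minority. For named genes outside the block the median host intron was 14726 bases. Almost every member had a protein-coding host (176 of 178), and the 177 members with a host intron lay in 173 host genes.

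**Figure D1:**
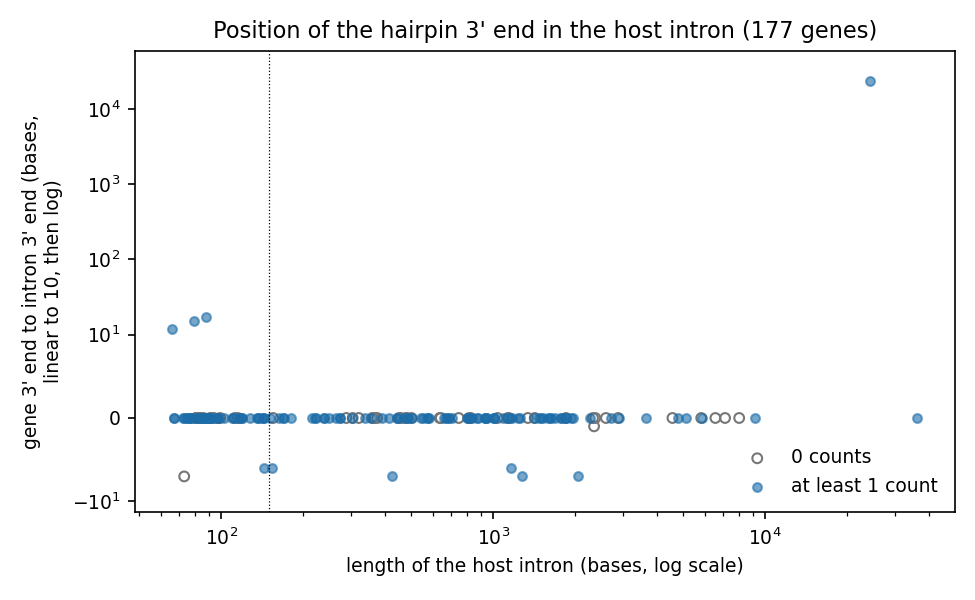
Each point is 1 of the 177 members with a host intron, placed by the intron's length in bases (log axis) and by the distance from the hairpin's 3' end to the intron's 3' end in bases (linear up to 10, then log). Filled points had at least 1 count and open points 0, and the dotted line marks 150 bases. Most points lie at a distance of 0, at all intron lengths.

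The block was chosen by symbol number, but as one already known to hold largely mirtrons. Its position at the 3' splice site is therefore in part given by that choice, and some shared features go with the position. Most introns end with AG, and 165 members ended in AG, as many as ended at the last base of an intron. The AG endings are therefore not separate from the position. Whether the C and U content of the 3p arms is separate from it was not tested. Among the hairpins 143 of 178 (80.3%) ended in CAG and 20 (11.2%) in TAG, read on the gene strand at the last position only, against 2.80% and 0.408% of the 1716 other named genes. The 5p arms were rich in G, at 45.4% of bases over 157 mature sequences, against 29.2% over 570 sequences of other mouse miRNAs. The 3p arms were rich in C and U, at 71.7% of bases over 155 sequences against 54.4% over 576, and 78.1% of them ended in AG, against 13.4%. RefSeq held a mature sequence for 163 of the members. Hairpins had a median length of 66 bases (range 52 to 137) and a median GC content of 57.8%, compared with 94 bases and 50% outside the block. Per base, the predicted folding energy was a median of -0.40 kcal/mol in the block and -0.37 outside it. Only 3 members had 20 bases in a row in common with some other miRNA gene, against 949 of the 1716 other named genes. Reads with several positions are not counted, and whether members match elsewhere in the genome was not tested.

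The 312 mature sequences of the block had 287 different seeds. Of the 21 seeds found in more than 1 mature sequence, 4 were found in 3. One such trio is shown because its members had different counts.
miR-7018-3p: uCACCCUGcugccggcuugcag
miR-7023-3p: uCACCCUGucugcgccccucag
miR-7068-3p: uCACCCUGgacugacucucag
Mir7018, which fills an intron of the basement membrane gene Hspg2, had 6 counts in each library. Mir7068, which fills an intron of Cherp, had 2 counts in replicate 1 and 13 in replicate 2. Mir7023, in an intron of Pik3cd, had 0 and 1. Seeds of the block also occurred in mouse miRNAs outside it for 42 of the 287 (14.6%), for example that of miR-7069-3p in miR-18a-3p.

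The libraries held 2719153 gene-strand miRNA counts in replicate 1 and 6602050 in replicate 2. A count of 0 allows up to 3 counts, or 1.10 CPM (the usual depth-scaled unit, taken over the gene-strand total of each library) in replicate 1 and 0.454 CPM in replicate 2. Levels are per gene and not per length, since 1 small RNA gives 1 read, and intervals cover counting error only. Tissue markers were present: summed levels in the replicates were 52450 and 67435 CPM for epithelium, 17643 and 12119 CPM for mesenchyme, 43454 and 41703 CPM for cartilage, 41674 and 54165 CPM for endothelium, 11712 and 13348 CPM for skeletal muscle, and 1072 and 1386 CPM for erythroid cells. Neural markers summed to 743 and 528 CPM, of which Mir137 alone gave 740 and 522 CPM. All 3 Mir124a genes and Mir9-2 were at 0, but these have close copies, and reads with several positions are not counted, so their zeros say nothing of neural cells. The liver marker Mir122 stood at 12.5 and 5.60 CPM. In whole tissue, fewer cells of a type and less RNA per cell cannot be told apart.

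Most members were seen, at low counts. Of the 178 members, 129 (72.5%) had at least 1 gene-strand count in the libraries together, against 36.3% of all 1973 gene rows. All rows include 931 with no Mir number, of which only 5.37% were detected, and ranges of Mir numbers are compared below. Other ranges come closer to the block. Members were found in both libraries in 80 cases, in replicate 1 alone in 13 and in replicate 2 alone in 36, and 49 (27.5%) were at 0 in both. Of the 129, 27 rested on a single read and 57 on 1 to 3 reads, which is within the limit that a count of 0 allows. The median detected member had 4 counts, or 0.454 CPM, against 23 counts and 2.67 CPM for all detected rows. Only 4 members (2.25%) reached 10 counts in each library, against 17.7% of all gene rows.

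**Figure D2:**
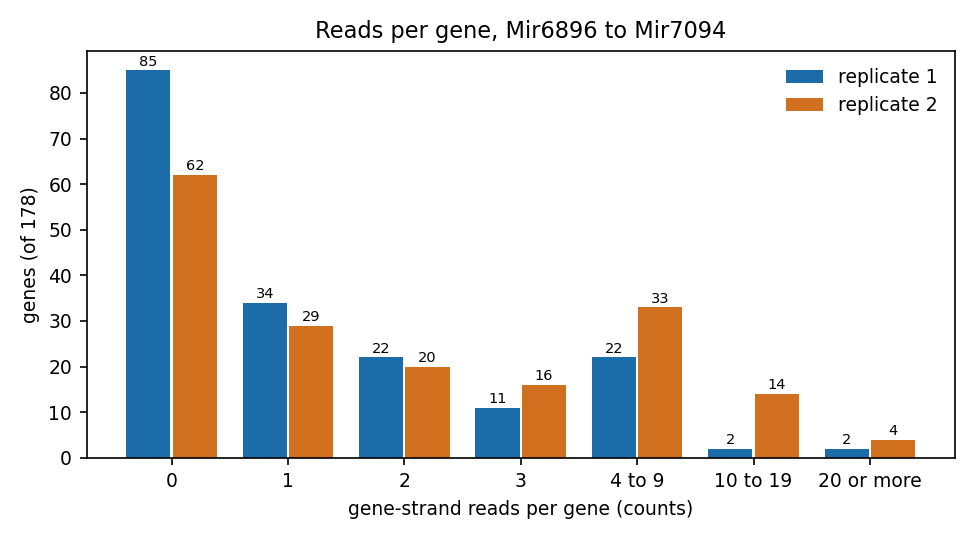
Bars give the number of members (of 178) by their gene-strand reads in replicate 1 (blue) and replicate 2 (orange). In replicate 1, 85 members were at 0 and 4 had 10 or more reads, and in replicate 2, 62 were at 0 and 18 had 10 or more.

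Together the members made up 337 counts in replicate 1 and 733 in replicate 2. The share of all gene-strand counts was 0.0124% (95% Wilson interval 0.0111 to 0.0138) and 0.0111% (0.0103 to 0.0119), with a mean of 117 ± 9.13 CPM (SD, n = 2). The intervals overlap. The deeper library held 2.43 times the total counts and 2.18 times the member counts. Thinned to the total of replicate 1, replicate 2 had reads for 82 members, against 93 in replicate 1. Mirlet7i, the highest gene of the tissue, alone stood 664 times above the sum of the block. A single gene, Mir6944, gave 18.1% of the block's counts in replicate 1 and 18.8% in replicate 2. The 3 highest members of each library gave 28.5% and 28.9%, and the 10 highest 43.9% and 44.2%. Reads on the opposite strand of members numbered 0 in replicate 1 and 5 in replicate 2 (0.678% of their reads there), while over all miRNA genes they were 4.39% and 4.32%. They lay at Mir7071, in an intron of Heatr3 that faces the antisense gene Gm9988 (3 reads, beside 1 and 3 gene-strand counts), and at Mir7036b, in the adducin gene Add1 (2 reads, beside 4 and 1).

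Mir6944 (ENSMUSG00000098341.1) was the highest member. It lies on chromosome 13 at 55477681 to 55477776 (build mm10, minus strand) and is the whole 96-base intron of Dbn1, which encodes the actin-binding protein drebrin. It had 61 counts in replicate 1 and 138 in replicate 2, or 22.4 CPM (Wilson interval 17.5 to 28.8) and 20.9 CPM (17.7 to 24.7). The replicates overlap, at a mean of 21.7 ± 1.08 CPM (SD, n = 2), which placed the gene at rank 262 of the 1973 rows.

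Mir7083 (ENSMUSG00000098473.1) followed, on chromosome 9 at 21809941 to 21810000, minus strand. It forms the last 60 bases of a 1833-base intron of Dock6, an activator of small GTPases. Its 22 and 44 counts correspond to 8.09 CPM (5.34 to 12.3) and 6.66 CPM (4.96 to 8.95), again with overlapping intervals. Its mean of 7.38 ± 1.01 CPM (SD, n = 2) was below Mir6944 in each library, with intervals that do not overlap.

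Mir6923 (ENSMUSG00000098855.1) is the whole 72-base intron of Myh3 on chromosome 11 at 67099804 to 67099875, plus strand. Myh3 encodes the myosin heavy chain of embryonic skeletal muscle. The gene had 13 and 30 counts, or 4.78 CPM (2.79 to 8.18) and 4.54 CPM (3.18 to 6.49). These values are close, at a mean of 4.66 ± 0.17 CPM (SD, n = 2), and their intervals overlap those of Mir7083.

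The 7 members that follow had intervals that overlap within each library, except that Mir6971 lay above Mir7025 in replicate 2. Mir6951, at the end of an intron of the polyamine regulator Azin1, had 10 and 17 counts (3.68 and 2.57 CPM), and it had the lowest GC content of the block, at 25.3%. Mir6971 lies in a 135-base intron of Skiv2l, a helicase of the RNA-degrading exosome machinery, and had 4 and 24 counts (1.47 and 3.64 CPM). Mir6975, in the splicing and export helicase gene Ddx39b, had 7 and 15 counts (2.57 and 2.27 CPM). Mir6971 was the one of these 3 with more CPM in replicate 2, yet its intervals, 0.572 to 3.78 and 2.44 to 5.41 CPM, overlap. Mir6897, in the glycoprotein folding sensor gene Uggt1, had 7 and 14 counts (2.57 and 2.12 CPM). Mir7069, in the tRNA synthetase gene Farsa, had 7 and 10 counts (2.57 and 1.51 CPM). Mir7063, in the clathrin adaptor gene Ap2a2, had 6 and 12 counts (2.21 and 1.82 CPM). All 3 were lower by CPM in replicate 2, by less than their intervals.

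Mir7025 is the exception in layout among the 10. Its place is the plus strand of chromosome 5 from 75176831 to 75176904, where 30 of its 74 bases fall in a coding exon of Pdgfra, the growth factor receptor that marks craniofacial mesenchyme. It had 8 counts in each library, or 2.94 CPM (1.49 to 5.81) and 1.21 CPM (0.614 to 2.39). These intervals overlap. The summed mesenchymal markers were also lower in replicate 2 (above), but most of that sum was Mir214, at 16140 and 11070 CPM. Mir199b, at 1166 and 756 CPM, and Mir199a-2, at 309 and 262 CPM, were lower in replicate 2 too. Only Mir199a-1 of the listed mesenchymal markers went the other way, at 32.4 and 34.4 CPM. The part of mesenchyme in the level of Mir7025 was not tested. The counts hold no read ends, so whether the 16 reads of Mir7025 came from the exonic bases was not tested.

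**Figure D3:**
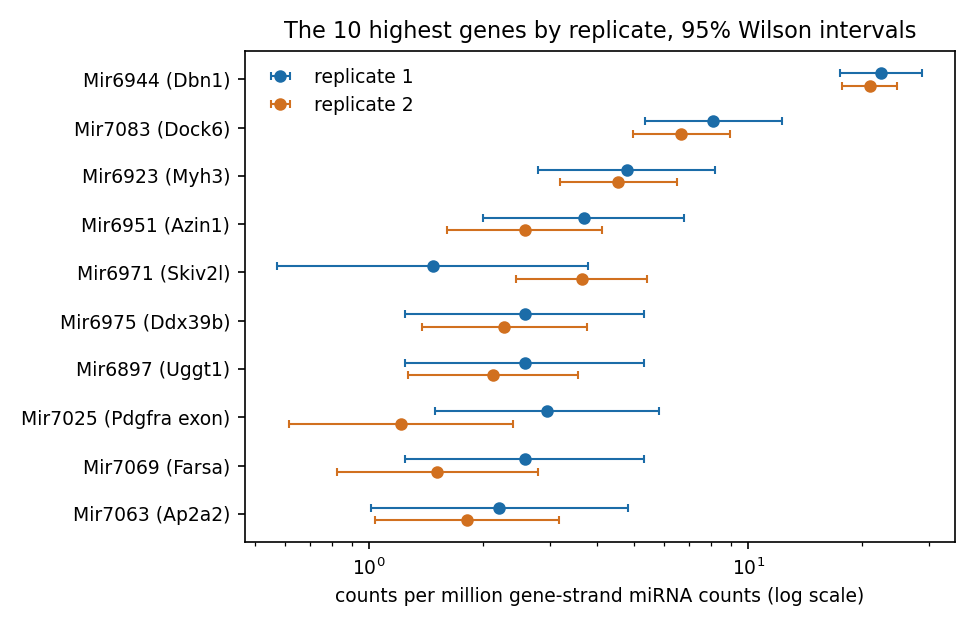
Points give the level of the 10 highest members in replicate 1 (blue) and replicate 2 (orange) in CPM on a log axis, with the host gene in brackets, and bars are 95% Wilson intervals. The intervals of the replicates overlap for each gene, and Mir6944, at 22.4 and 20.9 CPM, lies to the right of the other 9.

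Members hosted by genes of matrix, muscle and face signalling were few and had low counts, though their median lay above that of the other members. By a list of symbol stems, which is not complete, 8 members had such a host, and 7 of them were detected, with 33 counts in replicate 1 and 56 in replicate 2 (12.1 and 8.48 CPM). Their median was 0.801 CPM, against 0.227 CPM for the other 170 members, of which 122 were detected. The list leaves out, among others, the matrix gene Ecm1, whose Mir7014 was at 0 in both libraries, and the Notch ligand gene Jag2, whose Mir6941 had 0 and 1 counts. Beside Mir6923 and Mir7025, Mir7018 in Hspg2, the gene of the proteoglycan perlecan, stood at 2.21 and 0.909 CPM. Mir6996 in Notch1, a receptor of cell fate decisions, had 3 and 4 counts, and Mir6950 in Loxl2, a collagen crosslinking enzyme, had 2 and 5. Mir6963 in Itga5, the fibronectin receptor subunit, had 1 count in each library, and Mir7040 in Loxl3 had 0 and 2. Mir7005, in an 81-base intron of the laminin gene Lama5, was at 0 in both libraries, which allows up to 1.10 and 0.454 CPM.

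The detected shares differed little between the main forms of intron, and they were not tested against each other. Of the 14 whole-intron members 11 were detected (78.6%), and of the 152 with only the 3' end at the intron end 107 (70.4%). In the small forms, 3 of 4 with only the 5' end at an intron end were detected. So were 7 of 7 with a host intron but neither end within 3 bases of its ends, most of them partly exonic, and Mir7025. The whole-intron members held 91 and 209 counts (33.5 and 31.7 CPM), of which Mir6944 gave 61 and 138. The 152 others held 215 and 475 counts (79.1 and 71.9 CPM). In introns up to 150 bases 45 of 60 members were detected (75%), and in longer ones 83 of 117 (70.9%). Detected and undetected members had a median GC content of 58.3% and 56.9% and a median host intron of 400.5 and 457 bases.

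In 4 cases a pair of members lay in 1 host. The helicase gene Skiv2l hosts Mir6971 (4 and 24 counts) and Mir6970 (0 and 4 counts), which is a whole intron of 67 bases. Srebf1, a regulator of lipid synthesis, hosts Mir6921 with 1 count in each library and Mir6922 with 0. Cmip hosts Mir7077 with 2 counts in each and Mir7078 with 0, and both members in Arap3 were at 0.

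Other miRNA genes of noncanonical origin ranged from above Mir6944 to below the 10 highest members. Of a list of 10, 9 had a row. Mir1981, the whole 82-base intron of Marc2, had 198 and 603 counts (72.8 and 91.3 CPM). Mir877, a known mirtron that fills an 85-base intron of Abcf1, had 153 and 314 counts (56.3 and 47.6 CPM), above Mir6944 in each library with intervals that do not overlap. Mir1224, a mirtron in Vwa5b2, had 18 and 42 counts (6.62 and 6.36 CPM), and Mir1982, in Oaz1, 11 and 23 (4.05 and 3.48 CPM), both with intervals that overlap those of Mir6923. Mir702 in Plod3 stood at 34.2 and 41.4 CPM and Mir5132 in Irak1 at 2.21 and 0.757 CPM. Genes that bypass Drosha or Dicer without being introns were far higher, with Mir484 at 1936 and 2203 CPM, Mir451a at 986 and 1288 CPM and Mir320 at 786 and 796 CPM.

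Set against the rest of the catalogue, the block combined frequent detection with low counts. Genes Mir1 to Mir999 were detected in 73.8% of 465 rows and reached 10 counts in each library in 60%. For Mir1000 to Mir1999 the shares were 60.3% and 24.4% of 78 rows, and for Mir2000 to Mir4999 they were 73.1% and 26.9% of 78. Mir5000 to Mir6895, the neighbours below the block, were detected in only 28.4% of 148 rows, of which 6.08% reached 10 counts in each library. Above Mir7094 the shares were 51.6% and 5.26% of 95 rows. In the block itself they were 72.5% and 2.25%. Genes with 20 bases in common with some other miRNA gene were 191 of 465 for Mir1 to Mir999 and 19 of 78 for Mir2000 to Mir4999. In the block they were 3 of 178. Without such genes, detection was 83.2% for Mir1 to Mir999, 65.7% for Mir1000 to Mir1999 and 84.7% for Mir2000 to Mir4999. It was then 29.3% for Mir5000 to Mir6895, 72.6% in the block and 56.0% above it. The median detected level was 172 CPM for Mir1 to Mir999, 1.04 CPM for Mir5000 to Mir6895, 0.454 CPM in the block and 0.411 CPM above it. The 931 rows with no Mir number, of which 712 had 20 bases in common with some other miRNA gene, were detected in 5.37%.

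**Figure D4:**
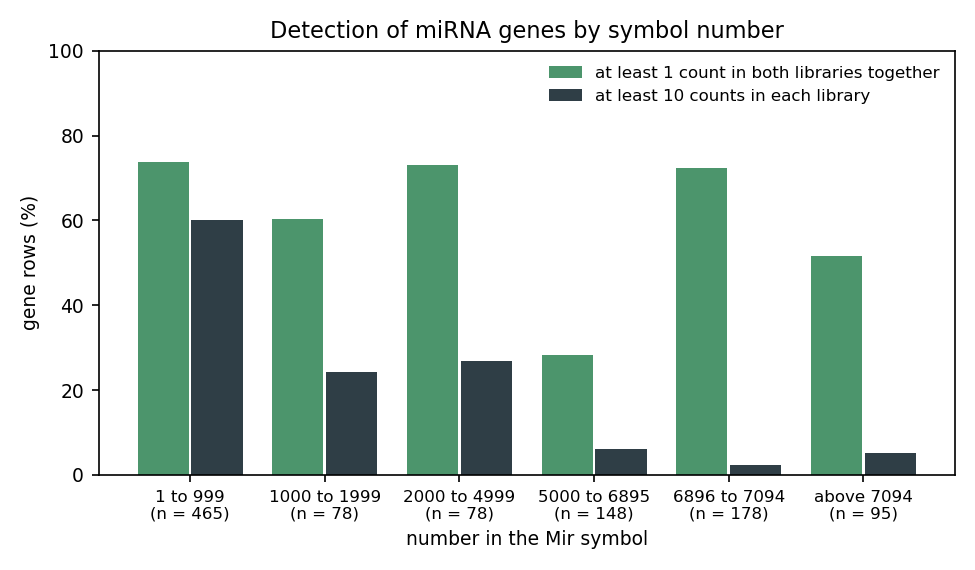
Bars give the percentage of gene rows in each range of Mir numbers with at least 1 count in the libraries together (green) and with at least 10 counts in each library (dark). The range Mir6896 to Mir7094 reaches 72.5% by the first measure and 2.25% by the second.

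No member differed between the replicates past the test. The comparison used an exact two-sided binomial test per gene on genes with a mean of at least 10 counts, with Benjamini-Hochberg adjustment over all 372 genes tested, and it compares 2 libraries rather than conditions. The test allows for counting error only. Beyond counting, edgeR's common dispersion over the 372 genes gave a coefficient of variation of 20.9% between the libraries. Of all tested genes 52.2% were called, but 14.4% of the 111 with a mean under 100 counts, the range of the members. Only 7 members could be tested, and 0 were called, with 0 also at an unadjusted p under 0.05 and with DESeq2 size factors in place of edgeR's TMM. Their log2 ratios, replicate 2 over replicate 1, ran from -0.42 for Mir6951 to 1.29 for Mir6971, with counting standard errors of 0.22 to 0.74, and 3 were above 0 and 4 below. Mir6944 stood at 0.017 (counting SE 0.22, adjusted p = 0.99) and Mir6971 had the lowest adjusted p, 0.112 (exact binomial test). At these counts only large differences could have passed.

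**Figure D5:**
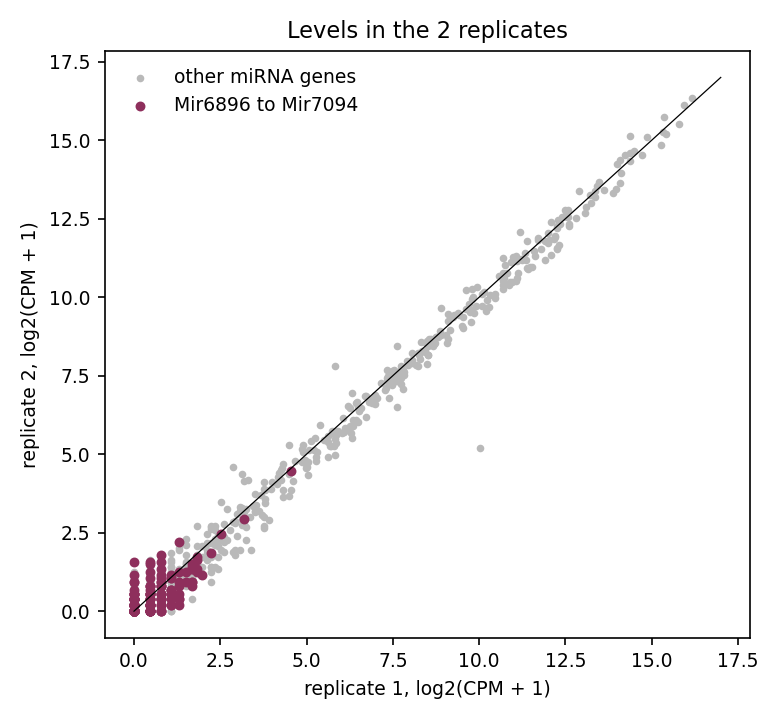
Each point is 1 miRNA gene, with log2(CPM + 1) in replicate 1 on the horizontal axis and in replicate 2 on the vertical axis, members in purple and other genes in grey, and a line of equal values. Members fill the lower left corner, and the highest, Mir6944, lies near the line at 22.4 and 20.9 CPM.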

How the data were processed

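The authors deposited raw read counts per miRNA gene, 1 file per library, counted over GENCODE M4 on mm10, per the labels and the metadata text. Aligner and trimming: not given in the sources used here. The layout is that of STAR counts, so only uniquely placed reads enter, and the gene-strand column was used. Identifiers were matched to GENCODE M21 with the version dropped, and all 178 members matched with the same version. Host introns on the same strand were taken from M21, protein-coding hosts first, then those with the most hairpin ends at intron ends, then the shortest. Sequences are RefSeq's, and hairpins were folded with RNAfold 2.7.2. TMM factors came from edgeR 4.0.16 on genes with a mean of at least 10 counts, with DESeq2 1.42.0 size factors as an alternative. Log2 ratios used a prior of 0.5 counts. The binomial step was tested on simulated data.

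The members and lists were chosen with earlier results of these data known. Named genes are members with 10 counts in each library, the 10 highest by mean CPM, those past the test, up to 3 with the most opposite-strand counts, those at 0 in a face tissue host, and the noncanonical list. Other genes were named after their values were seen. Summary rows stayed out of the totals. P-values set the difference between these 2 libraries against counting error alone, and they do not measure the spread between animals.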

Additional observations from a re-analysis of the deposited data

How the results depend on the processing

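The count of 129 detected members was 80 with at least 1 count in each library, 72 with over 3 counts in both together, 4 with at least 10 in each and 2 in the opposite-strand column. It ranged from 93 to 116 with 1 replicate left out, and was 116 with replicate 2 thinned to the total of replicate 1. The share of 0.0117% was 0.00574% of all reads, 0.00958% without the highest member and 0.0127% without Mirlet7i in the total. The median level of the 10 highest members, 2.49 CPM, was 2.42 to 2.76 CPM with 1 replicate left out. Members at intron ends went from 14 to 170 when 1 end sufficed. Detection at 10 counts in each library fell to 24.4%, 26.9%, 6.08%, 2.25% and 5.26% in the ranges from Mir1000 to Mir1999 upward. With no count filter 129 members entered the replicate test and 0 were called (2 at an unadjusted p under 0.05), and at a mean of at least 100 counts no member was left. No paired analysis was possible because there is only 1 group. Depth limits all single members but the highest few.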

Other observations

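Members in the listed host genes of white blood cells, liver and exocrine pancreas were mostly at 0, while 72.5% of all members were detected. The groups below were chosen after the values were seen and are not complete, and hosts were assigned from textbook knowledge, so the counts are a description with no test. Of 12 members in genes of white blood cells, 8 were at 0, among them Mir6973a in the lymphotoxin gene Ltb, Mir7086 in the interleukin receptor gene Il10ra and Mir6949 in the mast cell and basophil protease gene Mcpt8. The group held 3 counts in replicate 1 and 23 in replicate 2. It leaves out, among others, Adam8, whose Mir7062 had 2 and 5 counts, and Sh2b3, whose Mir7031 had 1 and 2. Mir7007, in an intron of the mast cell carboxypeptidase gene Cpa3, gave 2 and 16 of the group's counts, and Mir6983, in the macrophage receptor gene Csf1r, gave 0 and 6. All 5 members in genes of liver and exocrine pancreas were at 0, including Mir6978 in complement C3 and Mir6969 in colipase Clps. Host transcripts were not measured in these libraries.

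Mir6979, in an intron of the actin nucleator gene Diaph1, had 0 counts in replicate 1 and 13 in replicate 2. With no count filter it had the lowest p of the members in the exact binomial test (p = 0.0132, Benjamini-Hochberg adjusted p = 0.0514), so it did not pass.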
